A study of Mus musculus with 9 samples.

Results

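The genes described here encode the Z-disc, M-band and thin filament proteins that hold the contractile filaments of heart muscle in register. They were chosen by name as a list of 35 genes, which leaves out the myosins, troponins and actins, and a gene counted when the table of transcription start sites (TSS) held a row with its symbol. A row was present for 34 of the 35, out of 33844 in the table, and Cryab, a small heat shock protein that binds desmin, had none. All 34 entered the tests. Accessibility was measured by ATAC-seq, which reads out open chromatin from where a transposase can cut, in Pcm1-sorted cardiomyocyte nuclei of CD1 mice at postnatal day 1 (P1), day 14 (P14) and day 56 (P56). Each stage had 3 libraries, given in the labels as biological triplicates, each from pooled hearts, 12 per P1 library and 6 to 7 per library of the later stages. No genotype or treatment separated the groups, although a growth protocol in the labels speaks of surgery without saying whether it applied to these hearts. The p-values measure the spread between these 3 pools per stage.

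In a sarcomere, the repeating unit of striated muscle, actin filaments are anchored at the Z-disc by alpha-actinin and myosin filaments are tied together at the M-band by myomesins. Titin spans from the Z-disc to the M-band as a molecular spring. Tropomyosin lies along the actin filament, tropomodulin and leiomodin act at its pointed end, and LIM-domain and ankyrin-repeat proteins at the Z-disc take part in sensing stretch. The sarcomere is reorganised after birth as cardiomyocytes stop dividing and enlarge.

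For the 6 genes whose TSS count differed between stages (below), the 180 bases before a RefSeq start (build GRCm38.p6) are printed 5′ to 3′ on the gene's own strand. Only starts that hold a match to the motifs named next are shown. Flnc and Ldb3 have 2 RefSeq starts each, of which 1 is printed. The other Flnc start held none of these matches, and the other Ldb3 start shares the match of the printed start. Capitals mark a match to the MEF2 site in Ttn and Myom3, to the CArG box (the binding site of serum response factor) and then the MEF2 site in the upstream start of Fhl2, to the CArG box in the other start of Fhl2 and in Ldb3, and to the TEAD motif CATTCC, on either strand, in Flnc and Tpm1.
Ttn, chr2:76982548-76982727, minus strand: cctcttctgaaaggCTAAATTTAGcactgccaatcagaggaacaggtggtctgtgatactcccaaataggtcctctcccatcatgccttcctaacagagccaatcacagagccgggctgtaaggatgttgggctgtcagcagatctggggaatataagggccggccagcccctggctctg
Myom3, chr4:135759535-135759714, plus strand: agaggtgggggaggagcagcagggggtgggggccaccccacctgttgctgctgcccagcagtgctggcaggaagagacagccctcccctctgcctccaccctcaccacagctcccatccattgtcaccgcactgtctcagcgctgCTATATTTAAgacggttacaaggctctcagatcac
Fhl2, upstream start, chr1:43196762-43196941, minus strand: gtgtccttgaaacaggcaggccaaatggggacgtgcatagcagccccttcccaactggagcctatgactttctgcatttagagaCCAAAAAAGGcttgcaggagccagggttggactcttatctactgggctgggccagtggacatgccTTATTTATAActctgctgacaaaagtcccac
Fhl2, downstream start, chr1:43163962-43164141, minus strand: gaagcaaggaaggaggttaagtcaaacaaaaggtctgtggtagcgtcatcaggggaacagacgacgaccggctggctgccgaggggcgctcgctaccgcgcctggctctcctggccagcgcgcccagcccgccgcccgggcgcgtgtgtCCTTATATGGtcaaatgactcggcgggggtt
Ldb3, chr14:34588682-34588861, minus strand: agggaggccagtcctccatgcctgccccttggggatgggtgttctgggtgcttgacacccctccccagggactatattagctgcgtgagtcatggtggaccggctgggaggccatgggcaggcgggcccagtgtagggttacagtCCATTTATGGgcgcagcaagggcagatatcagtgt
Flnc, chr6:29433076-29433255, plus strand: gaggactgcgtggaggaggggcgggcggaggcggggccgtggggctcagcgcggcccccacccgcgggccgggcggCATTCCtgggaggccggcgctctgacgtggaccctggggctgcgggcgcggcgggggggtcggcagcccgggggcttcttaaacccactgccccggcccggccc
Tpm1, chr9:67049214-67049393, minus strand: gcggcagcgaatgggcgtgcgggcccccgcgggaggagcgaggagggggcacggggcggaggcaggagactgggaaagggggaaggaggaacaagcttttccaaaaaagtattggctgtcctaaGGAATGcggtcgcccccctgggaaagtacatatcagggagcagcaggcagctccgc

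RefSeq held 43 promoters for 30 of the 35 members. In the 250 bases before the start, searched on both strands, the MEF2 site was found in 16.3% of the members' promoters and 2.92% of all 32851 promoters, and the CArG box in 16.3% and 1.47%. MEF2 sites lay at Fhl2, Myom3, Myoz2, Synpo2l, Ttn and Xirp2, and CArG boxes at Fhl1, Fhl2, Ldb3, Myom1 and Nebl. The CArG box of Ldb3 is the same bases before both of its starts, and so counts in 2 of the 7 member promoters with that motif. The Fhl2 MEF2 site overlaps a TATA box match on the other strand. The TEAD motif was in 18.6% of the members' promoters and 12.6% of all. The letters AGATAA, which GATA factors bind, were in 16.3% and 9.99%, and the TATA box TATAAA was in 14.0% and 12.4%. The NKX2-5 motif AAGTGG was in 6.98% and 14.1%, and the oestrogen-related receptor motif AAGGTCA in 2.33% and 4.08%. These are matches of letters, with no measurement of binding.

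Total TSS counts per library ran from 481217 to 2167369 and total peak counts from 316311 to 1217798, and the P14 libraries were the shallowest of the peak table; in the TSS table P56 replicate 3 (874639) lay below P14 replicate 1 (893032). A pair of libraries stood apart at the members. P56 replicate 2 had the highest value of all 9 libraries at 32 of 34 members, against 20.7% of all regions, and P1 replicate 1 the lowest at 20 of 34, against 11.4%. Summed over the members, CPM (counts of a gene divided by its library total, after TMM correction) were 1486, 1982 and 2260 in P1 replicates 1, 2 and 3, 1839, 1985 and 2053 at P14, and 1973, 3952 and 2318 at P56. The summed CPM of 10 cardiomyocyte markers moved likewise, from 381 in P1 replicate 1 to 1683 in P56 replicate 2, with 610 to 838 in 5 of the other libraries and 714 and 932 in the remaining P56 libraries. None of these 10 markers, nor of the 8 each of fibroblasts, endothelial cells, smooth muscle cells and leukocytes, was at 0 in any library. Fibroblast markers summed to 291 to 332 CPM at P1 and 273 to 296 at P56, endothelial to 387 to 488 and 443 to 499, leukocyte to 173 to 204 and 176 to 189, and smooth muscle to 262 to 267 and 337 to 387. The 8 smooth muscle and pericyte markers were split, with 4 log2 changes from P1 to P56 above 0, 4 below and a median of 0.03. Smtn, 1 of the 4 above 0, had the highest counts of this list, with a mean of 117 CPM at P1 and 192 at P56. The share of TSS counts in the most covered 10% of regions was lowest in P1 replicate 1 (32.6%) and highest in P56 replicate 2 (38.6%). The part of these differences in the results was not tested, and in bulk nuclei a change in the share of cells cannot be told apart from a change of signal per cell. The called members and peaks and the counts over the members are therefore also given without these libraries; leaving out the lowest of one group and the highest of the other lowers the difference by construction.

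**Figure D1:**
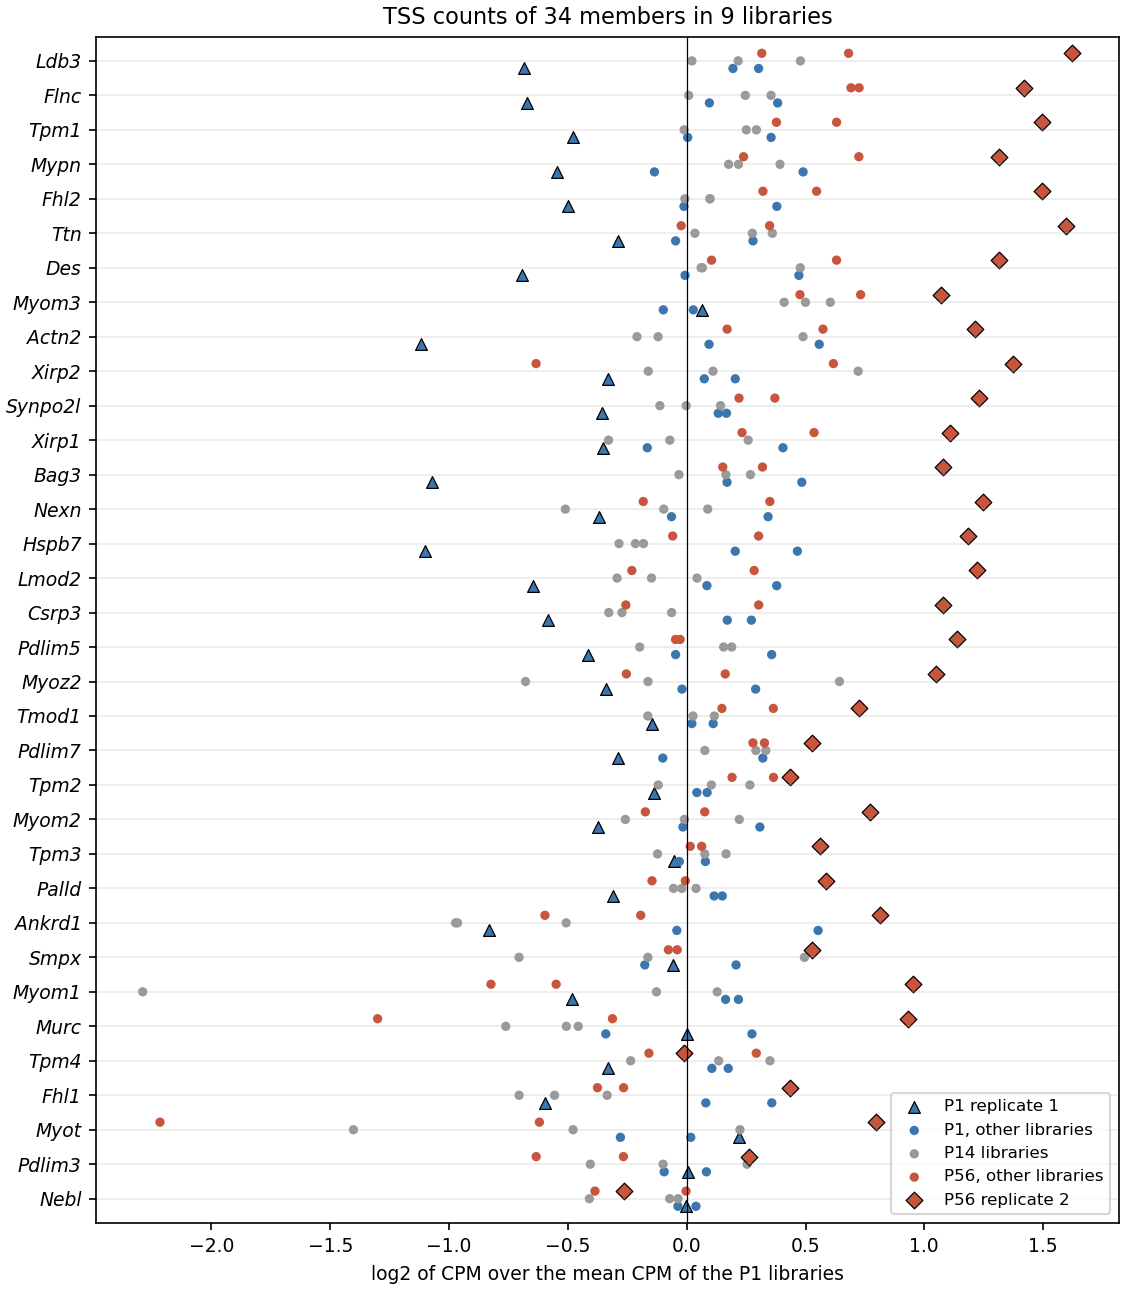
TSS counts of 34 members in each library, as the log2 of the CPM over the mean CPM of the 3 P1 libraries, ordered by the fitted change from P1 to P56. P56 replicate 2 (diamonds) is the highest library at 32 members and P1 replicate 1 (triangles) the lowest at 20.

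From P1 to P56 accessibility rose at 6 of the 34 members and fell at 0: Myom3, Tpm1, Ldb3, Flnc, Fhl2 and Ttn. Over all TSS regions tested, 1.72% rose and 0.806% fell (edgeR's quasi-likelihood test, Benjamini-Hochberg adjusted p below 0.05). The fitted log2 change was above 0 at 31 of 34 members, with a median of 0.50 (1.41-fold), against 49.3% of all regions and a median of -0.01. Every P56 library lay above every P1 library at 7 members, Myom3, Tpm1, Ldb3, Flnc, Tpm2, Synpo2l and Tmod1, where 10.9% of all regions did so. The count of called members depended on single libraries: it was 1 without P1 replicate 1, 0 without P1 replicate 2, 3 without P14 replicate 2, 12 without P56 replicate 1 and 0 without P56 replicate 2. Calls over all regions moved too, and 581 of 33747 rose with all libraries. In those fits, in the same order, 181 of 33494, 144 of 33653, 340 of 33844, 1164 of 33842 and 122 of 33756 rose. With neither P1 replicate 1 nor P56 replicate 2 in the fit, Myom3 alone was called (1.47% of all regions rose in that fit), 13 of 34 changes were above 0, the median was -0.09 and 18 of the 34 had the other sign. Without P56 replicate 2 alone 22 were above 0, with a median of 0.11.

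**Figure D2:**
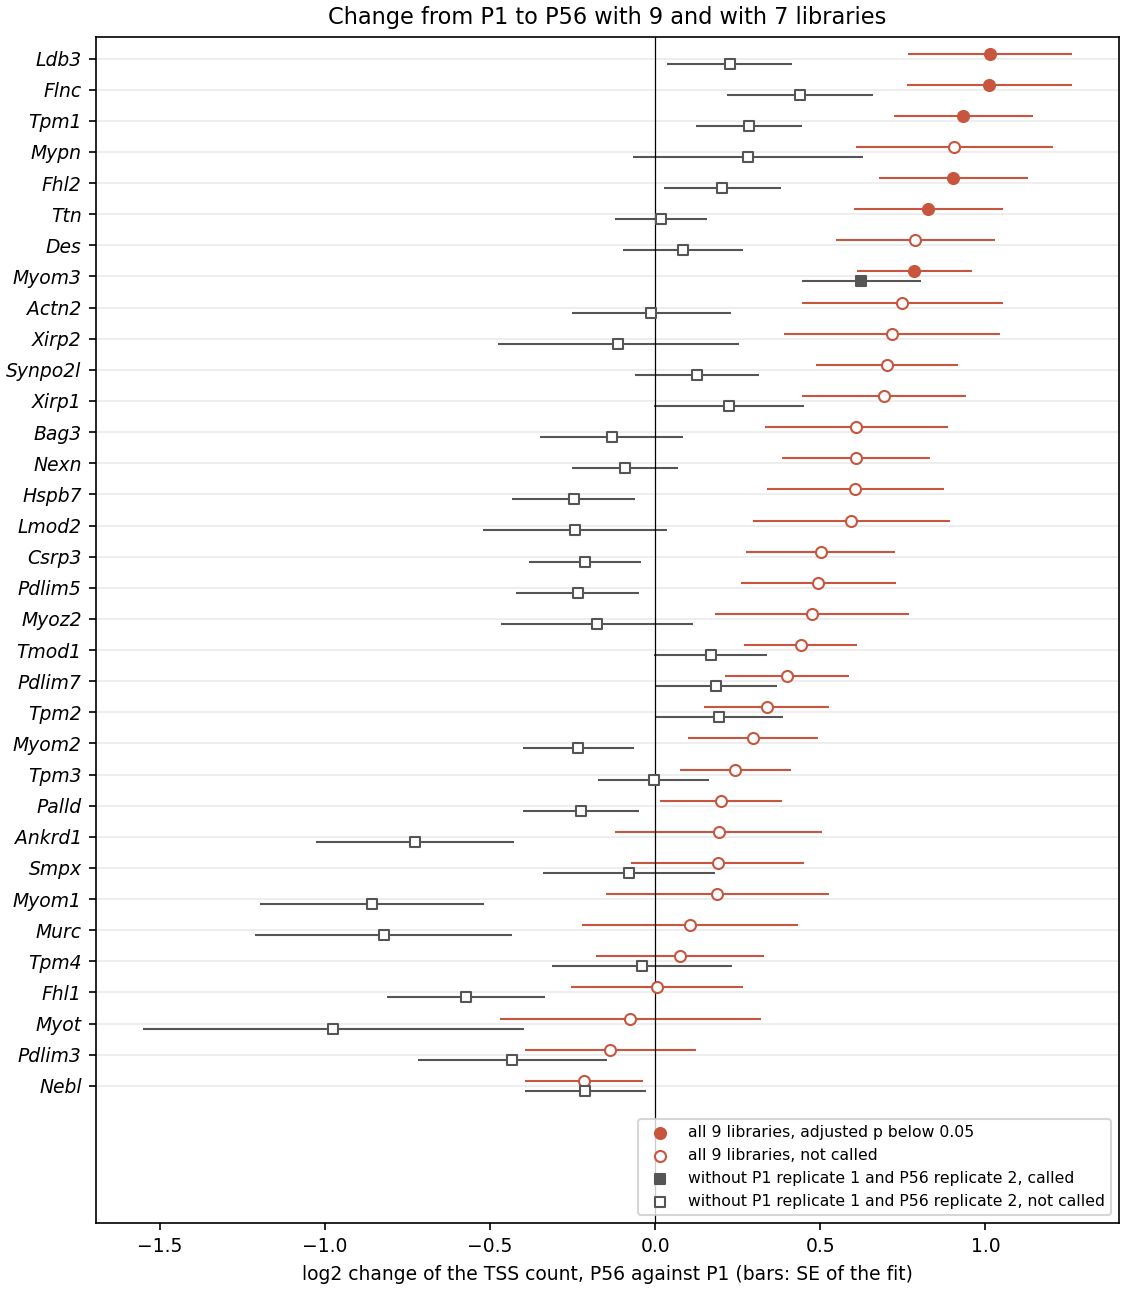
Fitted log2 change of the TSS count from P1 to P56 with its SE for 34 members, from all 9 libraries (circles) and without P1 replicate 1 and P56 replicate 2 (squares); filled symbols have an adjusted p below 0.05. With 9 libraries 6 members are called and 31 lie above 0, and with 7 libraries Myom3 alone is called and 13 lie above 0.

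Among titin and the M-band genes, 2 of 4 rose, Myom3 and Ttn. Myom3 (chromosome 4, 135758800 to 135815571) encodes myomesin-3, a cross-linker of myosin filaments. Its TSS count was 68.2, 66.5 and 60.9 CPM in the P1 libraries, 86.6, 99.1 and 92.2 at P14, and 90.7, 137 and 108 at P56. All P14 and all P56 libraries lay above all P1 libraries, and P1 replicate 1 was not the lowest here. The mean was 65.2 ± 3.82 CPM at P1 and 112 ± 23.3 at P56 (SD, n = 3), a log2 change of 0.78 with an SE of 0.17 (adjusted p = 0.0153). It was 0.62 without both libraries (adjusted p = 0.036), and leaving out P1 replicate 2 or P56 replicate 2 alone gave 0.79 and 0.60 (adjusted p = 0.0601 and 0.0818).

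Ttn (chromosome 2, 76703980 to 76982557) encodes titin. Its TSS count was 139, 164 and 205 CPM at P1, 173, 217 and 205 at P14, and 166, 511 and 216 at P56. One P56 library stood far above the rest and the other two lay within or just above the P1 range. From P1 to P56 the log2 change was 0.83 with an SE of 0.23 (adjusted p = 0.0423), and it was 0.17 without P56 replicate 2 (adjusted p = 0.619) and 0.02 without both libraries. The call was also lost without P1 replicate 1, P1 replicate 2 or any 1 of the P14 libraries. The Ttn row held 5.96 times the reads of the peak at the RefSeq start of Ttn (4.44 to 10.4 over the libraries), so it covers sequence beyond that peak; how starts were combined into 1 row is not given in the sources used here. Rows above 3 times their start peak were also those of Csrp3 (4.06), Tpm3 (3.49) and Nebl (3.37), and the Flnc row held 0.275 of the reads of its start peak. The other myomesins gave 0.19 (Myom1) and 0.30 (Myom2), or -0.86 and -0.23 without both libraries, and were not called.

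Of 13 Z-disc scaffold genes, 1 rose and 0 fell. This was Ldb3 (chromosome 14, 34526699 to 34590314), which encodes the PDZ and LIM protein cypher (ZASP) that binds alpha-actinin. Its count was 33.9, 62.4 and 67.2 CPM at P1, 63.3, 75.9 and 55.3 at P14, and 67.8, 168 and 87.4 at P56. The lowest P56 library exceeded the highest P1 library by under 1 CPM. The log2 change was 1.01 with an SE of 0.25 (adjusted p = 0.0264), 0.52 without P56 replicate 2, 0.73 without P1 replicate 1, and 0.23 without both (adjusted p = 0.579). The call was lost in each of these fits and without P1 replicate 2 (adjusted p = 0.066) or P14 replicate 2. Opn4, the melanopsin gene, ends 304 bp from Ldb3, and its row had a log2 change of 0.80 (adjusted p = 0.0635), and 0.69 without both libraries.

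The other 12 scaffold genes ranged from -0.22 to 0.91. Mypn, which encodes myopalladin, had the largest of these changes (0.91, adjusted p = 0.0822), followed by Actn2, sarcomeric alpha-actinin (0.75, adjusted p = 0.15), and Synpo2l (0.70, adjusted p = 0.0649). Without both libraries these were 0.28, -0.01 and 0.13. The 3 members with a fitted change below 0 were all scaffolds: Nebl, Pdlim3 (-0.14) and Myot (-0.08), the latter pair at -0.43 and -0.97 without both libraries. Nebl encodes nebulette, a nebulin relative that binds actin at the Z-disc. It gave 83.9, 86.3 and 81.9 CPM at P1, 80.0, 63.3 and 82.0 at P14, and 64.3, 70.0 and 83.9 at P56. P56 replicate 2 was not high at Nebl. The log2 change was -0.22 with an SE of 0.18 (adjusted p = 0.49), and it was -0.21 without both libraries. Mir6419, inside Nebl, gave -0.47 (adjusted p = 0.303).

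The genes for filamin, Xin proteins and the intermediate filament were grouped with Smpx and Murc. Of these 6 genes 1 rose, Flnc (chromosome 6, 29433153 to 29461889), whose product filamin C cross-links actin at the Z-disc and the cell membrane. Its count was 21.7, 37.0 and 45.1 CPM at P1, 41.1, 44.3 and 34.8 at P14, and 57.3, 92.6 and 55.9 at P56. All 3 P56 libraries were above all 6 others. Flnc changed by 1.01 on the log2 scale, with an SE of 0.25 (adjusted p = 0.0281). It was 0.73 without P1 replicate 1, 0.73 without P56 replicate 2 and 0.44 without both (adjusted p = 0.296), and was not called in those fits nor without P1 replicate 2 (adjusted p = 0.0754). Des, the intermediate filament desmin (0.79), Xirp2 (0.72) and Xirp1 (0.69), the Xin actin-binding proteins, had changes of similar size that were not called, as did Gm15179, which overlaps Des (0.88, adjusted p = 0.0607). Smpx gave 0.19 and Murc, a caveola protein now named Cavin4, 0.11. Without both libraries Des was at 0.08, Xirp2 at -0.11, Xirp1 at 0.22, Gm15179 at 0.26, Smpx at -0.08 and Murc at -0.82.

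Among the 6 thin filament genes, Tpm1 rose and the other 3 tropomyosin genes were not called. Tpm1 (chromosome 9, 67022590 to 67049672) encodes alpha-tropomyosin, the main form of the mouse heart. Its count was 64.3, 89.8 and 114 CPM at P1, 88.8, 110 and 106 at P14, and 116, 252 and 139 at P56. The P56 libraries were all above the P1 libraries, by a narrow margin between 116 and 114. The log2 change was 0.93 with an SE of 0.21 (adjusted p = 0.0167), 0.72 without P1 replicate 1, 0.51 without P56 replicate 2 and 0.29 without both (adjusted p = 0.36), none of them called. Without P1 replicate 2 it was 0.93 (adjusted p = 0.0675).

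Tpm2, beta-tropomyosin, gave 52.6, 59.6 and 61.4 CPM at P1, 62.2, 69.6 and 53.3 at P14, and 66.1, 78.3 and 74.6 at P56. Its stages P1 and P56 did not overlap, yet the log2 change of 0.34 was not called (SE 0.19, adjusted p = 0.294). Tpm3, a tropomyosin of slow skeletal muscle and of non-muscle cells, gave 92.6, 93.9 and 101 CPM, then 101, 108 and 88.1, then 96.9, 142 and 100. Tpm4, a non-muscle tropomyosin, gave 21.7, 30.8 and 29.4 CPM, then 30.0, 23.2 and 34.8, then 33.5, 27.1 and 24.5. Both overlapped between stages, with log2 changes of 0.24 (SE 0.17, adjusted p = 0.402) and 0.07 (SE 0.25, adjusted p = 0.889), and both signs turned in other scalings or without both libraries (values in the closing section). The difference between Tpm1 and the other tropomyosins was not tested. The pointed-end proteins tropomodulin-1 (Tmod1) and leiomodin-2 (Lmod2) had changes of 0.44 and 0.59 that were not called, and of 0.17 and -0.24 without both libraries.

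Of the 3 stretch-sensing genes 1 rose, Fhl2 (chromosome 1, 43123071 to 43198343), a LIM protein that binds the spring region of titin. Its count was 47.4, 66.5 and 87.2 CPM at P1, 66.6, 71.7 and 71.7 at P14, and 83.7, 189 and 97.9 at P56. The lowest P56 library lay below the highest P1 library. Fhl2 gave a log2 change of 0.90 with an SE of 0.23 (adjusted p = 0.0296), 0.44 without P56 replicate 2 and 0.20 without both; the call was lost without P1 replicate 1, P1 replicate 2 or any 1 P14 library as well. Gm8210, a pseudogene inside Fhl2, gave 1.04 (adjusted p = 0.0845), and 0.79 without both libraries. Fhl1, of the same LIM protein family as Fhl2, gave 0.01 and Ankrd1, a stress-induced ankyrin repeat protein, 0.19; without both libraries they gave -0.57 and -0.73, and neither was called.

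Neither chaperone gene with a row was called. Hspb7, a small heat shock protein of heart muscle, gave 30.0, 74.0 and 88.7 CPM at P1, 56.6, 52.7 and 55.3 at P14, and 61.7, 146 and 79.2 at P56. P1 replicate 1 alone lay far below the other P1 libraries, and the stages overlapped. Its log2 change was 0.61 with an SE of 0.27 (adjusted p = 0.184), and -0.25 without both libraries. Bag3, a co-chaperone of filamin turnover, also gave 0.61, and -0.13 without both libraries. In all, 13 genes with a row of their own lay within 1 kb of a member and none was called. Besides the neighbours of Ldb3, Nebl, Des and Fhl2 already named, 2310030G06Rik at Cryab gave 0.52 (adjusted p = 0.252). Fubp1, Mir6945, Gm13601, Tmeff1, Myl12a, Car9, Nup210l and Tstd2 ranged from -0.18 to 0.65. The median of the 13 was 0.33, and 0.09 without both libraries.

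**Figure D3:**
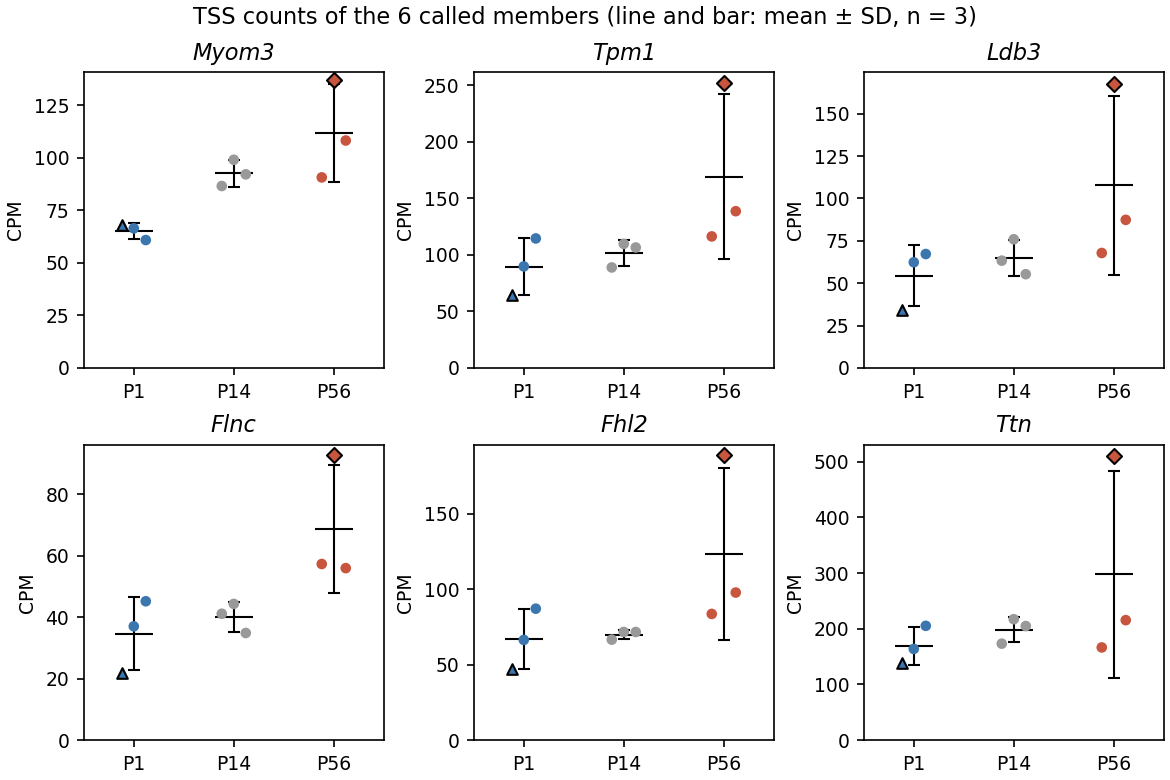
CPM at the TSS of the 6 called members in each library, by stage, with the mean and SD of 3 libraries; the triangle is P1 replicate 1 and the diamond P56 replicate 2. In each panel the diamond is the highest point, and for Myom3 the P14 and P56 points all lie above the P1 points.

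The P14 libraries were compared with each end point to place the change in time. From P1 to P14 no member was called, with 0.0119% of all regions called, and the members' median log2 change was 0.01 with 20 of 34 above 0; without P1 replicate 1 it was -0.16 with 7 above 0. At an unadjusted p below 0.05 there was 1 member higher, Myom3 (0.50, SE 0.19, adjusted p = 0.52), and 0 lower. Myom3 was the 1 member at which every P14 library exceeded every P1 library, which 9.02% of all regions did. From P14 to P56 no member was called either (0.00296% of all regions). The members' median was 0.52 with 31 of 34 above 0, against -0.02 and 48.4% over all regions. Without P56 replicate 2 the members' median was 0.13, with 21 of 34 above 0. At an unadjusted p below 0.05 there were 13 members higher and 0 lower from P14 to P56. The share of all regions past the unadjusted cut was not counted in either comparison, so these counts have no background beside them. DESeq2 and limma-voom also called 0 members in both comparisons. Tpm1 gave 0.17 (SE 0.23) from P1 to P14 and 0.76 (SE 0.23) from P14 to P56, and Fhl2 gave 0.06 (SE 0.25) and 0.84 (SE 0.25); these comparisons share the P14 libraries, and their difference was not tested. Without P56 replicate 1, Nexn, Tpm1 and Fhl2 were called from P14 to P56, whereas without P56 replicate 2 no member was, and Tpm1 gave 0.34 and Fhl2 0.38. Over all regions 101 of 33842 were called without P56 replicate 1, 0 of 33756 without P56 replicate 2 and 1 of 33747 with all libraries. Without P1 replicate 1 and P56 replicate 2, Ankrd1, named here after its values were seen, was lower at P14 than at P1 (log2 change -1.15, adjusted p = 0.0436; 0.311% of all regions fell in that fit). With all libraries Ankrd1 gave 13.5, 23.3 and 35.2 CPM at P1, 12.2, 16.9 and 12.3 at P14 and 15.9, 42.1 and 21.0 at P56, and its change to P14 was -0.81 (adjusted p = 0.591). The left-out P1 replicate 1 was the lowest P1 library at Ankrd1, so leaving it out lowered this change by construction.

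The second table counted reads in peaks, which also cover the bodies of the genes. Of 25885 peaks tested, 66 lay inside or within 5 kb of 30 of the 35 members. From P1 to P56, 5 of these 66 rose and 0 fell, against 0.212% and 0.232% of all peaks, and 53 were above 0 with a median of 0.35 (0.03 over all peaks). Without P56 replicate 2 it was 41 of 65 above 0 with a median of 0.08, and without both libraries 30 of 64 with a median of -0.02 and 3 called. In the fit without both libraries 1.56% of all peaks rose. At 15 of the 66 every P56 library was above every P1 library, which held at 8.54% of all peaks. The 5 were 3 peaks of Ttn, 1 of Myom3 and 1 of Tpm1, and each lay over 10 kb from the nearest RefSeq start of its gene, inside the gene. Of the 24 peaks within 1 kb of a RefSeq start, at 21 members, none was called. The median change was 0.35 for these 24 and 0.33 for the 37 other peaks of members with a RefSeq start. In P14 against P1 and in P56 against P14, 0 of the 66 were called (0.00773% of all peaks in each), with 3 higher and 5 lower, and 22 higher and 1 lower, at an unadjusted p below 0.05. The share of all peaks past that unadjusted cut was not counted, so these counts have no background beside them.

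**Figure D4:**
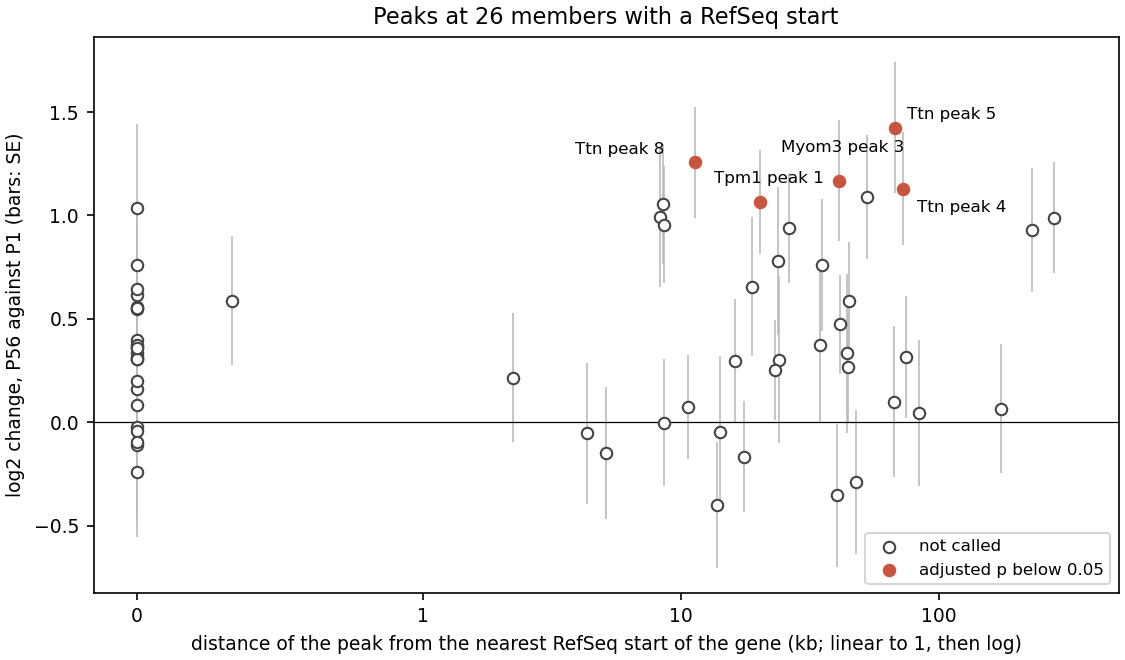
Log2 change from P1 to P56, with its SE, of the peaks at members with a RefSeq start, by distance from the nearest start (linear to 1 kb, then logarithmic). The 5 called peaks, in red, lie 11 to 72 kb from the start, and the peaks at the start spread from -0.24 to 1.04.

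Ttn held 9 of the 66 peaks, numbered here along the chromosome, so that peak 9 is at the start of this minus-strand gene. All 9 changes were above 0 (7 of 9 without both libraries), and at 7 of them no P56 library overlapped a P1 library. Peak 8, 11.4 kb from the start (chr2:76967512-76971144), gave 48.5, 53.3 and 43.4 CPM at P1, 59.6, 56.0 and 88.4 at P14, and 90.6, 156 and 96.8 at P56. Peak 5, 67.6 kb from the start (chr2:76913949-76914976), gave 22.2, 16.6 and 23.7 CPM at P1, 29.8, 34.2 and 50.5 at P14, and 36.8, 79.2 and 51.8 at P56. At both peaks all P14 and P56 libraries exceeded all P1 libraries. That also held at other peaks of members, among them Ttn peak 2 and Fhl2 peak 3, which were not called, and Tpm1 peak 1. The share of all peaks at which all P14 and P56 libraries did so was not counted. Their log2 changes from P1 to P56 were 1.26 (SE 0.27, adjusted p = 0.0153) and 1.42 (SE 0.32, adjusted p = 0.0193), and without both P1 replicate 1 and P56 replicate 2 they were 0.97 (adjusted p = 0.00833) and 1.07 (adjusted p = 0.0385), in a fit where 1.56% of all peaks rose. Leaving out 1 library at a time ended the call of peak 8 in 2 of 9 fits, without P1 replicate 2 or P56 replicate 2, and that of peak 5 in 3, the same and without P56 replicate 3. Peak 4, 72.5 kb from the start (chr2:76907078-76910071), gave 44.4, 46.6 and 58.1 CPM at P1, 73.7, 56.0 and 63.1 at P14, and 72.2, 162 and 88.5 at P56. Its change was 1.13 (SE 0.27, adjusted p = 0.0337) and 0.59 without both libraries (adjusted p = 0.153), and 4 of the 9 fits that left out 1 library did not call it (P56 replicate 2 or 3, P14 replicate 3, and P1 replicate 2).

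The peak at the start of Ttn gave 30.4, 56.6 and 72.0 CPM at P1, 26.3, 31.1 and 53.7 at P14, and 40.7, 105 and 60.1 at P56. Its stages overlapped, and its change was 0.40 (SE 0.30, adjusted p = 0.51), or -0.39 without both libraries. The reads of the other 8 Ttn peaks over those of the start peak came to 11.2, 6.14 and 5.57 in the P1 libraries, 14.3, 13.4 and 10.3 at P14, and 12.6, 10.2 and 9.50 at P56. P1 replicate 1 was thus within the range of the later stages and the other P1 libraries below it; the start peak held 10 to 111 reads per library, which limits these ratios.

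**Figure D5:**
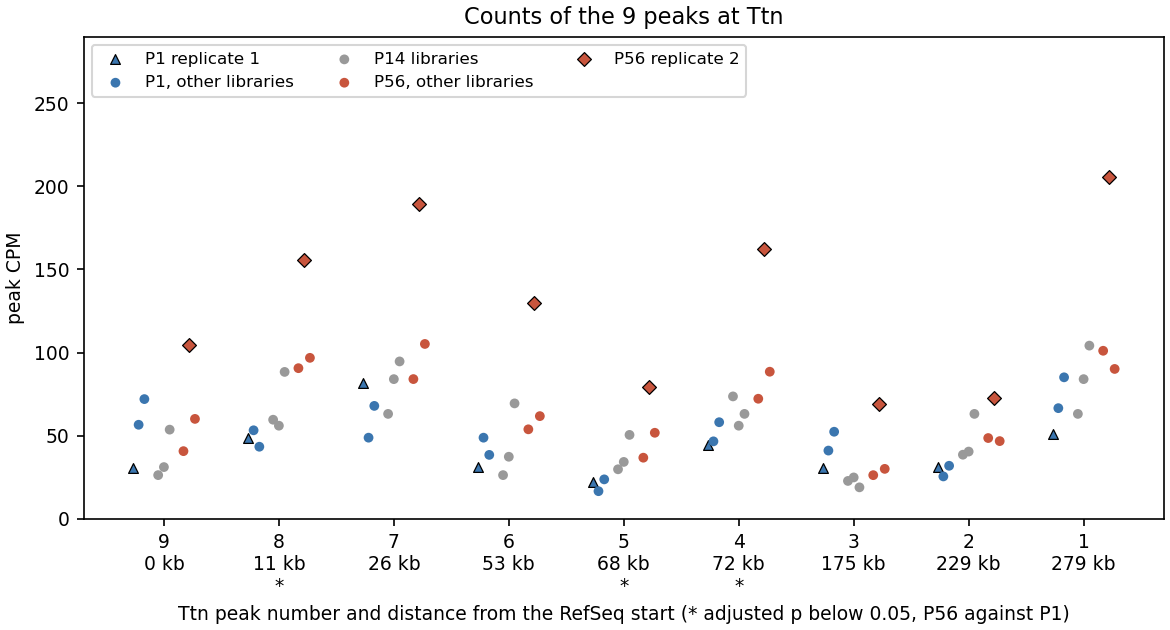
CPM of the 9 peaks at Ttn in each library, from the start of the gene (peak 9, left) to its far end (peak 1, right), with the distance from the start in kb; stars mark the called peaks 8, 5 and 4. At peaks 8, 5 and 2 the P14 and P56 points all lie above the P1 points, and P56 replicate 2 (diamond) is the highest point at every peak.

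Myom3 had no peak at its start and 3 in its body. Peak 3, 41.2 kb from the start (chr4:135800880-135802989), gave 30.4, 33.3 and 28.6 CPM at P1, 33.3, 37.4 and 56.8 at P14, and 55.2, 81.0 and 70.1 at P56. The P56 libraries were clearly above P1, with a log2 change of 1.17 (SE 0.29, adjusted p = 0.0385) that was 1.01 without both libraries (adjusted p = 0.0216). Leaving out 1 library, the change was at least 1.02 and the call was lost in 7 of 9 fits, all but those without P1 replicate 1 or P56 replicate 1, with an adjusted p of up to 0.25; scaling by library size gave an adjusted p of 0.0533. The other Myom3 peaks gave 0.07 and 0.30, or -0.08 and 0.45 without both libraries. Tpm1 peak 1, near the far end of the gene and 20.2 kb from the start (chr9:67024179-67028995), gave 74.0, 94.3 and 101 CPM at P1, 109, 128 and 110 at P14, and 117, 270 and 172 at P56. Its change was 1.06 (SE 0.25, adjusted p = 0.0273) and 0.55 without both libraries (adjusted p = 0.112), and the call was lost without P1 replicate 1, P1 replicate 2, P56 replicate 2 or P56 replicate 3. The Tpm1 start peak gave 0.30 (adjusted p = 0.544), and -0.25 without both libraries. The difference between the Tpm1 peaks was not tested.

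The count of called peaks was 0 without P1 replicate 2, 0 without P56 replicate 2, 3 without P14 replicate 3, 11 without P56 replicate 1 and 1, Ttn peak 8, without P56 replicate 3. Over all peaks 55 of 25885 rose with all libraries. In those fits, in the same order, 3 of 25868, 0 of 25872, 35 of 25915, 271 of 25908 and 14 of 25915 rose. Ttn peak 8 kept a log2 change of 0.96 without P56 replicate 2 (adjusted p = 0.243), in a fit that called 0 peaks in the whole table. Start peaks of the other called members gave 0.56 at Flnc (adjusted p = 0.213) and 0.61 and 0.65 at the starts of Fhl2 (adjusted p = 0.261 and 0.226), and the 1 peak of Ldb3, 41.6 kb from its start, gave 0.47 (adjusted p = 0.312). Fhl2 peak 3, between its starts, gave 1.06 (adjusted p = 0.0619). Without both libraries the start peak of Flnc gave 0.17, those of Fhl2 0.19 and 0.12, the Ldb3 peak 0.10 and Fhl2 peak 3 0.51. The lowest changes were -0.40 at the Tpm2 peak, -0.35 at Palld peak 1 and -0.29 at the Fhl1 peak, none of them called. Cryab, which had no TSS row, had 1 peak of 98.7, 143 and 170 CPM at P1, 123, 115 and 114 at P14, and 140, 257 and 175 at P56; its change was 0.48 (adjusted p = 0.306), or -0.0034 without both libraries, and the peak is shared with Hspb2, which overlaps Cryab.

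Other genes of the same structures were counted at the TSS from 3 further lists. Over all TSS regions tested 1.72% rose, and without P1 replicate 1 and P56 replicate 2 (both libraries) 1.47% did. Of 35 more Z-disc and costamere genes 5 rose from P1 to P56 and 0 fell, with a median of 0.33; without both libraries 2 rose, Tcap and Pdlim2 (0.57, adjusted p = 0.0272), and the median was 0.09. The smallest p belonged to Tcap, the titin cap at the Z-disc (1.34, adjusted p = 0.0036), Plec, the cytolinker plectin (0.71, adjusted p = 0.00874), and Ankrd23, an ankyrin repeat protein (1.07, adjusted p = 0.0157). Sync and Pdlim4 were also called. Without both libraries Tcap gave 0.81 (adjusted p = 0.0103), Plec 0.34 (adjusted p = 0.102) and Ankrd23 0.48 (adjusted p = 0.172).

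Of 15 more thin filament genes 1 rose, Capzb, a subunit of the capping protein at the barbed end (0.59, adjusted p = 0.035), and the next were Wdr1 (0.50) and Tmod4 (0.51), which were not called. Without both libraries 0 of the 15 were called, Capzb gave 0.30 (adjusted p = 0.246), and the median went from 0.44 to 0.07. Of 15 genes for chaperones, assembly and turnover 3 rose: Trim54, a muscle ubiquitin ligase (1.39, adjusted p = 0.0115), and the small heat shock proteins Hspb1 (1.21, adjusted p = 0.0249) and Hspb6 (1.02, adjusted p = 0.0375). None of the 3 was called without P56 replicate 2, a fit in which 122 of 33756 regions rose. Without both libraries the 3 genes gave 0.77, 0.47 and 0.51 (adjusted p = 0.123, 0.304 and 0.359). Trim55, another muscle ubiquitin ligase, gave -1.11 without both libraries (adjusted p = 0.0124), where 663 of 32118 regions were called, 472 of them higher. It gave -0.16 with all libraries (adjusted p = 0.798) and -0.86 without P56 replicate 2 (adjusted p = 0.168). At Trim55 the left-out libraries were the lowest of P1 (26.9 CPM) and the highest of P56 (57.2 CPM), which lowers the difference by construction. Pdlim2 and Trim55 were named after their values were seen, and Pdlim2 gave 0.44 with all libraries (adjusted p = 0.113). With all libraries no gene of these lists was called in the comparisons with P14.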

How the data were processed

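What the authors deposited are raw read counts of 9 libraries, in 1 table by gene at its TSS (region width not stated) and 1 table by peak of a common list; every deposited region had a mean of at least 10 counts. BWA 0.7.10, SAMtools 1.3.1, bedtools 2.26, featureCounts 1.4.2, MACS 1.4.0, bcl2fastq 2.17.1.14 and build GRCm38 are named per the submitters' processing notes; read filters and the pooling for peak calling are not given in the sources used here. Each whole table was fitted in R 4.3.3 with edgeR 4.0.16 (TMM, default expression filter, 1 coefficient per stage), leaving 33747 TSS regions and 25885 peaks. The quasi-likelihood F test was two-sided, with Benjamini-Hochberg adjustment per comparison over all regions. The SE is the log2 change over the root of F. Counts carry no strand, so overlapping genes cannot be told apart.

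The members and lists were chosen with earlier results of these data known. A result outside the members is not reported here and was left out of its list's counts. Members named with every value are those called in any comparison, the smallest p of each role, the lowest and highest change and the 4 tropomyosins; peaks are up to 3 of the smallest p per direction and those near called starts. Tpm1 peak 1 and Ttn peak 4 were named as called peaks. Peaks were placed by RefSeq genes of GRCm38.p6, exons and introns not being analysed here. Alternatives were other scalings, filters, DESeq2 1.42.0, limma-voom (limma 3.58.1), fits of 2 stages, the replicate block and left-out libraries. The fits were tested on simulated data.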

Additional observations from a re-analysis of the deposited data

How the results depend on the processing

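The count of members called from P1 to P56 (6) was 4 with DESeq2, whose adjusted p was not available for 10 of the 34 members. This count was 5 to 6 with limma-voom, DESeq2's size factors, library size, the factors of the other table and no filter. It was 0 with loess offsets, 0 with the 2 stages alone, 1 with a mean count of at least 20, 1 without P1 replicate 1 and P56 replicate 2, and 0 to 12 leaving out 1 library. Over all regions 581 of 33747 rose in the main fit, 289 with DESeq2 and 319 to 804 in the alternatives with 5 to 6 called members. With loess offsets 122 of 33747 rose, with the 2 stages alone 142 of 33812 and with that filter 153 of 19587. Without those 2 libraries 472 of 32118 rose, and 122 to 1164 did leaving out 1 library. With the replicate number as a block 12 members were called, and 1982 of all regions were called, against 853 in the main fit. Same-numbered libraries correlated at -0.075 to 0.219, with 1 of 9 pairs over 0.1 and 6 of 9 closest to their own number. These values do not settle whether the numbers pair the samples, and the main fit did not use the numbers. From P1 to P14 the count of 0 became 1 without both libraries, and from P14 to P56 it was 0 to 3 leaving out 1 library. Over all regions 293 of 32118 were called from P1 to P14 without both libraries, against 4 in the main fit. From P14 to P56, 0 to 101 were called leaving out 1 library, against 1 in the main fit. The count of called peaks (5) was 9 with the factors of the other table, 0 with loess offsets, 1 with a mean count of at least 20, 2 with DESeq2, whose adjusted p was not available for 52 of the 66 peaks, 1 with limma-voom, 2 with 2 stages alone, 3 without both libraries, 12 with the replicate block and 0 to 11 leaving out 1 library. Over all peaks 55 rose in the main fit. In these alternatives, in the same order, 102, 17, 18, 64, 35, 27, 394, 273 and 0 to 271 rose. Placing peaks within 1 kb of a gene gave 5 called of 60, and within 50 kb 5 of 146, against 5 of 66 in the main placing. Scaling by library size moved the median of all TSS regions from P1 to P56 to -0.14 and that of the members to 0.35.

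Under these alternatives no called log2 change of a named member or peak reversed. Without both libraries the sign of 18 of 34 members turned from P1 to P56, of 13 from P1 to P14 and of 10 from P14 to P56. Among the members named with every value, changes that were not called turned as follows. From P1 to P14, loess offsets gave -0.070 for Fhl2, -0.0014 for Tpm1, -0.017 for Tpm2, -0.12 for Tpm3, -0.012 for Tpm4 and -0.028 for Ttn; library size gave -0.0036 for Fhl2 and -0.021 for Tpm3; a mean count of at least 20 gave -0.023 for Fhl2 and -0.041 for Tpm3; the other table's factors gave -0.0014 for Tpm3; limma-voom gave 0.017 for Hspb7. Without both libraries that comparison gave -0.17 for Fhl2, -0.055 for Flnc, -0.023 for Ldb3, -0.059 for Tpm1 and -0.039 for Tpm4. From P1 to P56, Hspb7 was -0.25 without both libraries; Tpm3 was -0.0044 without both and -0.031 with loess offsets; Tpm4 was -0.041 without both, -0.057 with library size, -0.089 with loess offsets and -0.070 with a mean count of at least 20. From P14 to P56 without both, Tpm3 was -0.012 and Ttn -0.044. Leaving out 1 library, the ranges from P1 to P14 were -0.16 to 0.31 for Fhl2, -0.049 to 0.49 for Flnc, -0.58 to 0.13 for Hspb7, -0.016 to 0.46 for Ldb3, -0.039 to 0.40 for Tpm1, -0.020 to 0.12 for Tpm3 and -0.040 to 0.23 for Tpm4. From P1 to P56 the range was -0.090 to 0.16 for Tpm4. From P14 to P56 they were -0.17 to 0.0031 for Nebl, -0.0096 to 0.29 for Tpm3, -0.20 to 0.061 for Tpm4 and -0.047 to 0.88 for Ttn. The cause of these shifts was not tested. The effect of depth was not tested.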
